A study of Mus musculus with 7 samples.

Results

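The follicular and effector switch genes are 10 genes that T cells use to become follicular helpers of B cells or to become effector cells of tissues: Bcl6, Prdm1, Icos, Cxcr5, Cd40lg, Sh2d1a, Id2, Id3, Tox2 and Il21. They were taken by symbol from a table of 57180 genes, and all 10 were found once and passed the filter on low counts. Bulk RNA of Treg cells (regulatory T cells, the FOXP3-dependent CD4 T cells that hold other lymphocytes in check) was counted in 4 FOXP3-low and 3 FOXP3-high samples. The cells were sorted from tumours of Foxp3-Cre-YFP mice, which express Cre and a yellow fluorescent protein from Foxp3 and carried B16-F0 melanoma, a transplantable mouse tumour line. The labels call the genotype of every sample WT, name no treatment for either group, and give no age, gate, number of mice or pooling. Nothing says that the samples came from separate animals, so the p-values speak only of sample-to-sample spread, and that spread may be technical. In bulk RNA, fewer cells of a type and less RNA per cell cannot be told apart.

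Follicular T cells live in B cell follicles and direct germinal centres, and a regulatory form of them restrains the same reaction. BCL6, a transcriptional repressor, is needed for both, and BLIMP-1, the repressor encoded by Prdm1, opposes it: each represses the gene of the other. In tissues, BLIMP-1 marks effector Treg cells that make interleukin-10, while ICOS, a costimulatory receptor of the CD28 family, feeds both fates.

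The start regions of Bcl6 and Prdm1 are shown because these repressors act on each other's gene. The sequences are the 250 bases before each start, from RefSeq on GRCm38.p6, a build other than the GRCm39 of the count table. RefSeq lists 2 starts for Bcl6 on the minus strand of chromosome 16, the upstream at chr16:23988853-23989102 and the downstream at chr16:23981284-23981533, and 1 for Prdm1 on the minus strand at chr10:44458749-44458998. In a separate transcript set, the bases after the upstream Bcl6 start and the Prdm1 start were found near the beginning of a transcript. Those after the downstream Bcl6 start were not. Capitals mark matches on either strand to GAAAG, the core of the BLIMP-1 site, to TTCNNNGAA, a core shared by BCL6 and STAT sites, and to CAGNTG, an E-box of the E proteins.
Bcl6, upstream start: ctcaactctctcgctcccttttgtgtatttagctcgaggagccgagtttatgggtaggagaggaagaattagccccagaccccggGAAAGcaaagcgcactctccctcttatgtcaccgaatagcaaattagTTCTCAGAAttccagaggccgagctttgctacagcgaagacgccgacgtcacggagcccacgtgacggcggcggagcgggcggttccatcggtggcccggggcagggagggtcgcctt
Bcl6, downstream start: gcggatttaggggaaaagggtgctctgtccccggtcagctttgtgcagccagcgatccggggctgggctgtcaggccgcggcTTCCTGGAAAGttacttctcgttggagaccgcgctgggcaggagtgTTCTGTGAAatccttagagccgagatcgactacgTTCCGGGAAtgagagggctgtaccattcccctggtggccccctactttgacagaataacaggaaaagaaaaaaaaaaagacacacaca
Prdm1: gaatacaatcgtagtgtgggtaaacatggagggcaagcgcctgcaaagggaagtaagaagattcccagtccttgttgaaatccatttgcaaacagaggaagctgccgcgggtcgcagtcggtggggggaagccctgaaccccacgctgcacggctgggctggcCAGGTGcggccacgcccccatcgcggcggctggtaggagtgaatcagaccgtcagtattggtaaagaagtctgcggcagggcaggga
The shared BCL6 and STAT core occurred 1 time before the upstream Bcl6 start, as TTCTCAGAA from base 118 to base 110 before it, and 3 times before the downstream start. It was found in 7.04% of 32536 mouse start regions of this length, and not in the Prdm1 window. GAAAG occurred 1 time in each Bcl6 window, in the downstream one overlapping TTCCTGGAA, and in 51.6% of all regions. CAGNTG occurred 1 time in the Prdm1 window and in 44.8% of all regions. Of the 10 genes, 6 had a sequence in the table; Id2 and Il21 held 1 E-box each, Id3 held no match, and of the 5 Tox2 windows 1 held an E-box. The Tox2 start with the E-box was, like the downstream Bcl6 start, not found in the separate transcript set. A match is a run of letters and not a bound site.

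**Figure D1:**
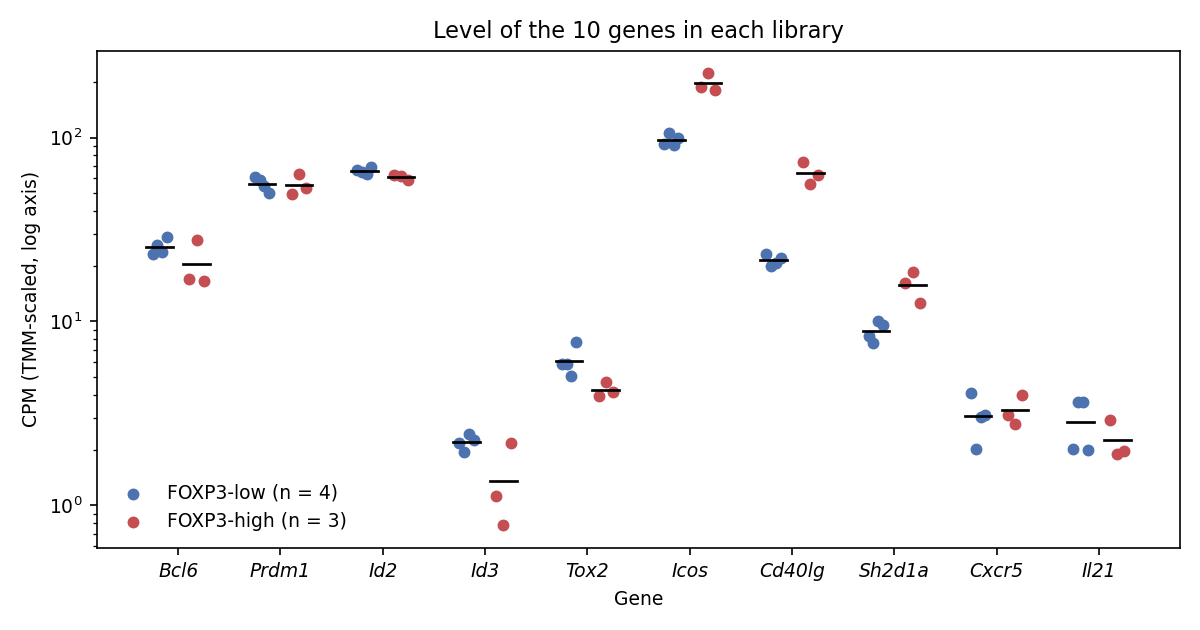
Level of each of the 10 genes in CPM (TMM-scaled, log axis) in 4 FOXP3-low (blue) and 3 FOXP3-high (red) libraries. Points are libraries and black lines are group means. Icos, Cd40lg and Sh2d1a are the genes whose red points all lie above the blue ones, and Id2 and Tox2 those whose red points all lie below.

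The 10 genes covered a wide range of levels. Values are CPM, the counts of a gene scaled to a common library size with TMM factors, and levels of different genes are compared as CPM per kilobase of gene length. In FOXP3-low, Icos (28.4 ± 1.98 CPM per kilobase, SD, n = 4) and Id2 (27.1 ± 1.03) stood highest, with overlapping libraries. Cd40lg (17.3 ± 1.11), Prdm1 (10.02 ± 0.878) and Bcl6 (3.81 ± 0.377) followed, each apart from its neighbours. Tox2, Sh2d1a, Id3, Cxcr5 and Il21 lay between 1.80 and 0.539 CPM per kilobase, and neighbours in that order overlapped except Sh2d1a and Id3. In FOXP3-high, Icos (57.7 ± 6.56, n = 3) and Cd40lg (51.3 ± 6.91) overlapped at the top, above Id2 (25.1 ± 0.791) and Prdm1 (9.93 ± 1.33). Bcl6 and Sh2d1a overlapped below them, at 3.06 ± 0.936 and 2.88 ± 0.544. Per length, the mean Icos level over the 7 libraries exceeded that of 91.8% of the 15838 genes tested, Prdm1 that of 71.1%, Bcl6 that of 47.5% and Il21 that of 9.52%.

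Icos, Cd40lg and Sh2d1a, 3 of the 10 genes, were higher in FOXP3-high at a Benjamini-Hochberg adjusted p under 0.05, taken over all genes in the quasi-likelihood test of edgeR. Of all genes tested 46.5% passed, 21.8% as higher and 24.6% as lower. As all 3 calls were higher, 3 of 10 lies below the share passing in either direction and above the share passing as higher. The other 7, Bcl6, Prdm1, Tox2, Id2, Id3, Cxcr5 and Il21, did not pass with TMM scaling. The counts depend on the scaling: with libraries scaled to the summed counts of T cell genes (T cell scaling), Sh2d1a lost its call and 5 of the 7 passed as lower. The libraries of the groups did not overlap in 5 of the 10 genes, against 50.7% of all genes. Of these 5, 3 were higher and 2, Id2 and Tox2, lower in FOXP3-high, where 23.9% and 26.8% of all genes were.

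Icos (ENSMUSG00000026009, chromosome 1, 61017086 to 61039479, plus strand, GRCm39) stood at 92.2, 106, 91.5 and 99.8 CPM in FOXP3-low replicates 1 to 4 and at 188, 224 and 182 CPM in FOXP3-high replicates 1 to 3. Every FOXP3-high library lay above every FOXP3-low library, and replicate 2 was the highest of its group. The mean rose from 97.3 ± 6.80 to 198 ± 22.5 CPM, a log2 fold change of 1.02 ± 0.0823 (standard error) or 2.03-fold (edgeR adjusted p = 8.68e-06). Each Icos value rested on 1135 to 2182 counts. The gene model Gm37039, inside Icos on the same strand, held 1.96% as many counts.

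Cd40lg encodes CD40 ligand, through which a T cell activates B cells and dendritic cells. The gene (ENSMUSG00000031132, chromosome X, 56257503 to 56269402, plus strand) was at 23.2, 20.1, 20.9 and 22.2 CPM in FOXP3-low and at 73.3, 56.1 and 62.9 CPM in FOXP3-high. The groups were far apart, and FOXP3-high replicate 1 was the highest library. Its log2 fold change was the largest of the 10, at 1.57 ± 0.10 or 2.97-fold (edgeR adjusted p = 2.14e-06). Against a null hypothesis of up to a 2-fold change (glmTreat), Cd40lg alone of the 10 passed, where 7.06% of all genes did, 0.865% as higher and 6.19% as lower.

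Sh2d1a encodes SAP, the adaptor that carries signals of SLAM family receptors and lets T cells stay attached to B cells. It is on chromosome X (ENSMUSG00000005696, 41591330 to 41618203, plus strand) and was at 8.29, 7.65, 10.1 and 9.62 CPM in FOXP3-low and 16.3, 18.6 and 12.6 CPM in FOXP3-high. All 3 FOXP3-high libraries lay above FOXP3-low, with replicate 3 the closest. The log2 fold change was 0.83 ± 0.16 or 1.77-fold (edgeR adjusted p = 0.0024). It rested on 94 to 189 counts per library. The call was lost with T cell scaling (0.33, edgeR adjusted p = 0.14) and against a null of up to a 2-fold change (adjusted p = 1).

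Bcl6 (ENSMUSG00000022508, chromosome 16, 23783802 to 23807602, minus strand) was at 23.3, 25.9, 24.0 and 28.9 CPM in FOXP3-low and 17.02, 27.7 and 16.7 CPM in FOXP3-high. FOXP3-high replicates 1 and 3 lay below every FOXP3-low library, and replicate 2 lay within them. The log2 fold change of -0.32 ± 0.18 did not pass (95% interval -0.72 to 0.07, edgeR adjusted p = 0.16). Without FOXP3-high replicate 2 it was -0.57 and passed (edgeR adjusted p = 0.0038), where adjusted p ranged from 0.0012 to 0.43 over the 19 alternatives with a null of no change and was 1 against a null of up to a 2-fold change.

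Prdm1 (ENSMUSG00000038151, chromosome 10, 44313173 to 44404497, minus strand) had the log2 fold change nearest 0 with TMM scaling. It was at 60.9, 58.6, 54.4 and 49.8 CPM in FOXP3-low and 49.2, 63.6 and 53.4 CPM in FOXP3-high, and the ranges overlapped almost wholly. The log2 fold change was -0.02 ± 0.10, and its 95% interval, from -0.25 to 0.22, corresponds to a ratio of FOXP3-high to FOXP3-low between 0.843 and 1.16 (edgeR adjusted p = 0.92). With T cell scaling it was -0.50 and passed as lower (edgeR adjusted p = 0.0025).

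Tox2 encodes an HMG-box factor that acts with BCL6 in follicular helper cells. The gene (ENSMUSG00000074607, chromosome 2, 163045045 to 163165022, plus strand) was at 5.85, 5.86, 5.05 and 7.70 CPM in FOXP3-low and 3.96, 4.68 and 4.15 CPM in FOXP3-high. All FOXP3-high libraries lay below FOXP3-low, on 42 to 46 counts against 72 to 92. The log2 fold change of -0.52 ± 0.20 missed the threshold (edgeR adjusted p = 0.055). Without FOXP3-low replicate 3 it was -0.62 and passed (edgeR adjusted p = 0.038, with a range of 0.0015 to 0.17 over the same 19 alternatives and 1 against the 2-fold null). Tox2 passed as lower in 4 of 20 alternatives. The others were T cell scaling, a filter of at least 50 counts in 3 libraries, and limma-voom with sample quality weights.

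Id2 and Id3 encode helix-loop-helix proteins that bind E proteins and keep them off DNA, and in Treg cells they hold back the follicular fate. Id2 (ENSMUSG00000020644, chromosome 12, 25143798 to 25147139, minus strand) was at 66.3, 65.4, 63.0 and 69.1 CPM in FOXP3-low and 62.7, 61.8 and 59.0 CPM in FOXP3-high. The groups lay close together without overlapping, and the log2 fold change of -0.11 ± 0.06 did not pass (95% interval -0.25 to 0.03, edgeR adjusted p = 0.18). Id2 was the steadiest of the 10, with a coefficient of variation of 3.81% in FOXP3-low and 3.15% in FOXP3-high.

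Id3 (ENSMUSG00000007872, chromosome 4, 135870808 to 135873066, plus strand) was scarce, at 2.19, 1.95, 2.45 and 2.26 CPM in FOXP3-low and 1.12, 0.779 and 2.17 CPM in FOXP3-high. FOXP3-high replicates 1 and 2, with 13 and 7 counts, lay below FOXP3-low, while replicate 3, with 23 counts, lay within it. The log2 fold change was -0.69 ± 0.36 (95% interval -1.50 to 0.11, edgeR adjusted p = 0.14). Without FOXP3-high replicate 3 it was -1.20 (edgeR adjusted p = 0.023, with a range of 0.023 to 0.38 over the 18 of these alternatives that kept the gene and 1 against the 2-fold null). The summed CPM of 8 endothelial and fibroblast genes was 514, 120 and 821 in FOXP3-high replicates 1 to 3 and 771, 878, 1466 and 624 in FOXP3-low. Fn1 was the 1 gene of that list to pass, as lower, and without it the sums were 349.9, 89.4 and 589.9 CPM in FOXP3-high and 138, 174, 692 and 168 CPM in FOXP3-low. Id3 was highest within each group in the library numbered 3, which also held the highest sum with and without Fn1; the part of those cells in the Id3 level was not tested.

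Cxcr5, the receptor that draws cells into follicles, and Il21, the cytokine by which follicular helper cells drive B cells, were near the lower end of what these libraries resolve. Cxcr5 (ENSMUSG00000047880, chromosome 9, 44423084 to 44473174, minus strand) was at 4.06, 2.03, 3.01 and 3.10 CPM in FOXP3-low and 3.10, 2.78 and 3.96 CPM in FOXP3-high, on 25 to 50 counts. Il21 (ENSMUSG00000027718, chromosome 3, 37276908 to 37286767, minus strand) was at 2.03, 3.66, 3.64 and 2.01 CPM in FOXP3-low and 2.92, 1.89 and 1.98 CPM in FOXP3-high, on 17 to 52 counts. Both genes overlapped between the groups. Their log2 fold changes were 0.11 ± 0.27 (95% interval -0.51 to 0.72) and -0.32 ± 0.32 (-1.05 to 0.41), and for Cxcr5 the interval spans ratios of FOXP3-high to FOXP3-low from 0.704 to 1.65. The antisense gene Gm12534 overlaps Il21 with 25.2% as many counts, and without a stated strand setting their reads cannot be told apart.

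Genes of other cell types moved with the groups and bear on the scale of these values. For comparison, 21.8% of all genes tested passed as higher and 24.6% as lower. Of 17 genes of alpha-beta CD4 T cells 16 were higher in FOXP3-high, and their sum ran from 3096 to 3565 CPM in the FOXP3-low libraries and from 4433 to 5136 CPM in the others. Of 16 macrophage and monocyte genes 14 were lower and 1, Ccr2, was higher, with a median log2 fold change of -3.67. Their sums were 2344 to 2862 against 748 to 772 CPM, and 2124 to 2632 against 245 to 347 CPM without Ccr2. Lower calls were also made for 6 of 7 neutrophil genes (sums of 797 to 1048 against 44.6 to 101 CPM), 8 of 8 dendritic cell genes (87.8 to 122 against 29.3 to 37.1) and 3 of 5 tested B and plasma cell genes (397 to 528 against 92.8 to 123). Of 10 melanoma genes 10 were higher, with sums of 1403 to 2513 against 3407 to 4680 CPM. Of 5 tested CD8 T and NK cell genes 3 were lower (52.5 to 73.2 against 23.0 to 34.3 CPM), and of 8 endothelial and fibroblast genes 1, Fn1, was lower. The sums of those 8 were 624 to 1466 against 120 to 821 CPM, but without Fn1 they overlapped widely, at 138 to 692 against 89.4 to 589.9 CPM, and the median of the 8 was 0.18. No gene of these lists was at 0 in all 7 libraries. Foxp3 followed the labels, at 310 to 397 CPM in the FOXP3-low group and 639 to 808 CPM in the other. Myeloid cells and B cells can express Bcl6, Prdm1 and Id2, and B cells Cxcr5; their part in the levels above was not tested.

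**Figure D2:**
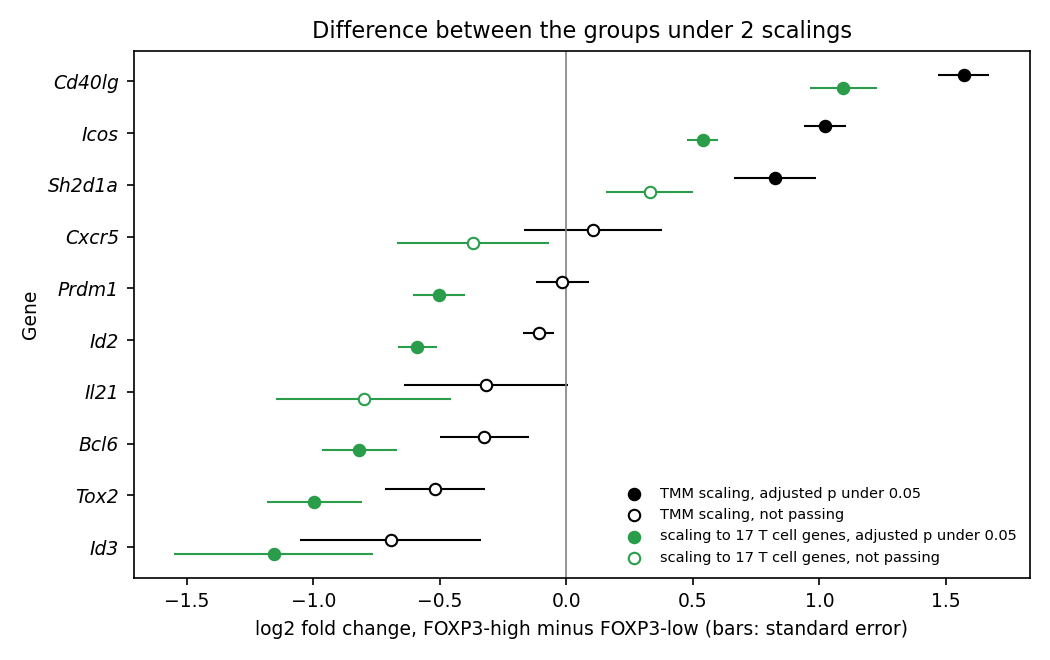
Log2 fold change of the 10 genes, FOXP3-high minus FOXP3-low, with standard errors, with TMM scaling (black) and with libraries scaled to 17 T cell genes (green). Filled points have an adjusted p under 0.05. The T cell scaling moves every gene to the left by about the same amount, which leaves Icos and Cd40lg as higher calls, Sh2d1a above 0 without a call, and brings 5 genes to a lower call.

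Scaling the libraries to the summed counts of the 17 T cell genes moved the median log2 fold change of all genes by -0.48, from 0.01 to -0.47, and the calls among the 10 genes with it. Icos stayed higher in FOXP3-high at 0.54 ± 0.06 and Cd40lg at 1.09 ± 0.13 (edgeR adjusted p = 6.57e-05 and 9.73e-05). Sh2d1a no longer passed, at 0.33 ± 0.17 (edgeR adjusted p = 0.14). Bcl6 (-0.82), Prdm1 (-0.50), Id2 (-0.59), Id3 (-1.16) and Tox2 (-0.996) passed as lower, with edgeR adjusted p-values from 1.63e-04 to 0.0315. With this scaling 55% of all genes passed, 4.84% as higher and 50.2% as lower, so a lower call was common and a higher call was not. Per 1000 counts of the 17 T cell genes, Icos had 27.2 to 29.7 counts in the FOXP3-low libraries and 40.4 to 43.5 counts in the FOXP3-high libraries. On the same scale Bcl6 had 6.87 to 8.24 counts in the former group and 3.67 to 5.40 in the latter, and the groups no longer overlapped.

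The balance of Prdm1 to Bcl6, and of Id2 to Id3, was taken as the log2 ratio of counts within a library, which does not depend on library scaling. Prdm1 counts were 2.61, 2.26, 2.27 and 1.72 times those of Bcl6 in FOXP3-low and 2.89, 2.29 and 3.20 times in FOXP3-high. The log2 ratio was 1.13 ± 0.25 (SD, n = 4) in FOXP3-low and 1.47 ± 0.25 (n = 3) in FOXP3-high, with overlapping libraries. The difference was 0.34 ± 0.19 (exact two-sided permutation test, p = 0.11). The p was taken as the smaller tail doubled, so 35 splits allowed no p below 0.057. The test in this form could not pass a threshold of 0.05. Id2 counts were 25.7 to 33.5 times those of Id3 in FOXP3-low and 56.1, 79.3 and 27.2 times in FOXP3-high. The log2 ratio differed by 0.69 ± 0.44 (exact two-sided permutation test, p = 0.23, against the same smallest p of 0.057), and FOXP3-high replicate 3 lay among the FOXP3-low libraries. Without that library the difference was 1.11, and without FOXP3-high replicate 2 it was 0.37.

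**Figure D3:**
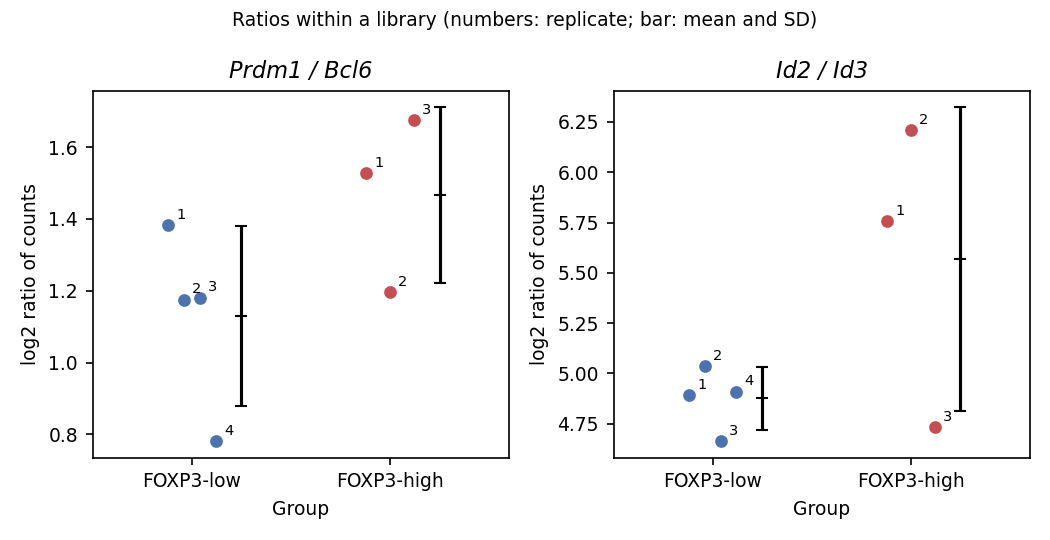
Log2 ratio of counts within each library for Prdm1 over Bcl6 (left) and Id2 over Id3 (right). Points are libraries labelled by replicate number, and bars give the mean and SD of 4 FOXP3-low and 3 FOXP3-high libraries. In each panel at least 1 FOXP3-high library falls among the FOXP3-low ones.

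Partner genes were described through 7 lists with 121 different genes, of which 114 were tested. Of these 55 were higher and 23 lower in FOXP3-high (68.4% called, against 46.5% of all genes), with a median log2 fold change of 0.25 against 0.01 for all genes. With T cell scaling 21 were higher and 54 lower, where 4.84% of all genes were higher and 50.2% lower. The median was then -0.24, against -0.47 for all genes. The lists were chosen with earlier results of these data known, so their shares and medians are described and test nothing. With TMM scaling the 17 CD4 T cell genes had a median log2 fold change of 0.46. The part of T cell content in the list values was not tested.

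Among 26 tested genes of the follicular programme, 15 were higher, 5 lower and 6 did not pass (76.9% called, against 46.5% of all genes). The median was 0.46, and -0.03 with T cell scaling. The list mixes genes that promote and genes that oppose the follicular fate, so its counts and median give no direction of the programme. Klf2, Foxo1 and Foxp1, of the opposing kind and named after their values were seen, were higher (log2 fold changes of 1.19, 0.75 and 0.71). With T cell scaling Klf2 (0.70) and Foxo1 (0.27) still passed, and Foxp1 (0.23) did not. Pdcd1, also named after its value was seen, did not pass with TMM (0.07) and passed as lower with T cell scaling (-0.41). Tcf7, which encodes TCF1, an upstream activator of Bcl6, averaged 39.9 ± 4.38 CPM in the FOXP3-low group and 134 ± 14.0 CPM in the FOXP3-high group. Its relative Lef1 rose 2.15-fold. Maf, a factor that drives Il21 and Il10, rose by 0.81 ± 0.07 on the log2 scale, from 423 ± 19.3 CPM to 740 ± 72.3 CPM (edgeR adjusted p = 9.85e-06). Zfp831 rose 2.33-fold. These 4 rose with T cell scaling too. An antisense gene, Gm15655, overlaps Maf with 11.0% as many counts. The 5 lower genes, named after their values were seen, were Batf, Cd200, Btla, Pou2af1 and Cebpa, with log2 fold changes of -0.45, -0.85, -0.38, -2.01 and -2.43. Cebpa is a factor of myeloid cells, whose genes were lower as given above, and Pou2af1 one of B cells. The part of those cells in the 2 values was not tested.

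Of 28 genes of the effector Treg programme 14 were higher, 8 lower and 6 did not pass (78.6% called, against 46.5% of all genes). The median was 0.31. With T cell scaling the median was -0.17, with 8 higher and 14 lower, where 4.84% and 50.2% of all genes were. Havcr2, which encodes the inhibitory receptor TIM-3, fell from 175 ± 11.4 to 71.6 ± 3.70 CPM. Entpd1, which encodes the ectoenzyme CD39, fell 2.66-fold, and Penk, the enkephalin precursor, fell 2.13-fold. Macrophages and dendritic cells also express Havcr2 and Entpd1, and their marker lists had median log2 fold changes of -3.67 and -2.82; the part of those cells was not tested. Itgae, the alpha chain of an integrin that holds T cells in epithelium, rose 2.36-fold to 164 ± 17.5 CPM; Haspin overlaps it on the opposite strand with 15.9% as many counts. Il10, the cytokine whose gene BLIMP-1 supports in Treg cells, was named after its value was seen and rose by 0.76 on the log2 scale, with 24.3 CPM in the FOXP3-low group and 41.2 CPM in the FOXP3-high group (edgeR adjusted p = 4.81e-04). With T cell scaling its log2 fold change was 0.27 and still passed.

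Of 15 genes around ICOS and CD28, 6 were higher, 4 lower and 5 did not pass (66.7% called, against 46.5% of all genes). The median was 0.13, and -0.36 with T cell scaling. Ctla4, the inhibitory relative of CD28 and ICOS, rose 1.63-fold to 1596 ± 207 CPM, and Pik3r1, a regulatory subunit of the kinase that ICOS recruits, rose 1.44-fold but did not pass with T cell scaling. Cd80, a ligand of CD28 and CTLA-4, fell from 20.8 ± 3.17 to 6.01 ± 0.22 CPM, and Pik3ap1, a kinase adaptor of B and myeloid cells, from 229 ± 17.9 to 34.2 ± 4.22 CPM. The other lower genes, named after their values were seen, were Cd86 (log2 fold change -1.12) and Icosl, the ligand of ICOS (-0.67). Cd80, Cd86 and Icosl are ligands of antigen-presenting cells, and the dendritic cell and macrophage sums fell alongside; the part of those cells was not tested.

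Of 12 tested SLAM and SAP genes 6 were higher, 3 lower and 3 did not pass (75% called, against 46.5% of all genes). The median was 0.17, and -0.32 with T cell scaling. Slamf1, a receptor that binds SAP, rose from 53.4 ± 5.09 to 115 ± 4.55 CPM, and Prkcq, a kinase downstream of SAP, rose 2.02-fold. Slamf7 fell from 49.2 ± 6.39 to 6.23 ± 1.76 CPM and Ptpn6, which encodes the phosphatase SHP-1, fell 2.47-fold. The third lower gene, named after its value was seen, was Cd244a (log2 fold change -3.43), a SLAM receptor of NK and myeloid cells. The macrophage and the CD8 T and NK cell sums were lower too; the part of those cells was not tested.

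Of 5 tested E protein and Id genes 1 was higher and 1 lower, so 40% were called, against 46.5% of all genes. Tcf12, which encodes the E protein HEB, stood at 88.7 ± 7.87 and 124 ± 4.49 CPM and passed as higher with TMM (log2 fold change 0.48, edgeR adjusted p = 5.42e-04) but was at -0.0005 with T cell scaling. Lyl1, named after its value was seen, was lower at a level of 1.51 against 0.372 CPM. Tcf3, which encodes E2A, was at 68.3 and 62.6 CPM and did not pass. Id1 was at or below 1 CPM in both groups on average. Both were named after their values were seen.

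Of 14 tested partners of IL-21, CD40 and CXCR5, 7 were higher, 2 lower and 5 did not pass (64.3% called, against 46.5% of all genes). The median was 0.25, and -0.24 with T cell scaling. Stat5b, a STAT factor that opposes Bcl6 in T cells, rose by 0.98 ± 0.08 on the log2 scale and by 0.49 with T cell scaling, with 140 ± 5.59 CPM in the FOXP3-low group and 276 ± 36.0 CPM in the FOXP3-high group (edgeR adjusted p = 9.69e-06). Its neighbour gene Stat5a, named after its value was seen, was at 47.8 and 50.9 CPM and did not pass. Socs3, a feedback inhibitor of STAT3 signals, fell 1.54-fold, and Jak1 rose 1.33-fold with TMM but turned to -0.08 with T cell scaling. Cd40, the receptor of CD40 ligand, fell from 10.9 ± 2.12 to 1.10 ± 0.466 CPM, while Cd40lg rose. Cd40 is a gene of B cells, dendritic cells and macrophages, whose sums were lower too. The part of other cell types in the Cd40 and Socs3 values was not tested. Cxcl13, the ligand of CXCR5, was named after its values were seen and had 2 counts in all 7 libraries together.

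Of 18 tested relatives and corepressors of BCL6 and BLIMP-1, 8 were higher, 1 lower and 9 did not pass. Thus 50% were called, close to the 46.5% of all genes. The median was 0.25, and -0.24 with T cell scaling. Zbtb32, a BTB zinc finger repressor of activated lymphocytes, fell from 37.8 ± 3.35 to 14.6 ± 1.40 CPM. Prdm2 rose by 0.67 and Prdm15 by 0.86 on the log2 scale, the latter without passing under T cell scaling. Ncor1, a corepressor that BCL6 recruits, rose 1.24-fold with TMM but passed as lower, at -0.17, with T cell scaling.

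**Figure D4:**
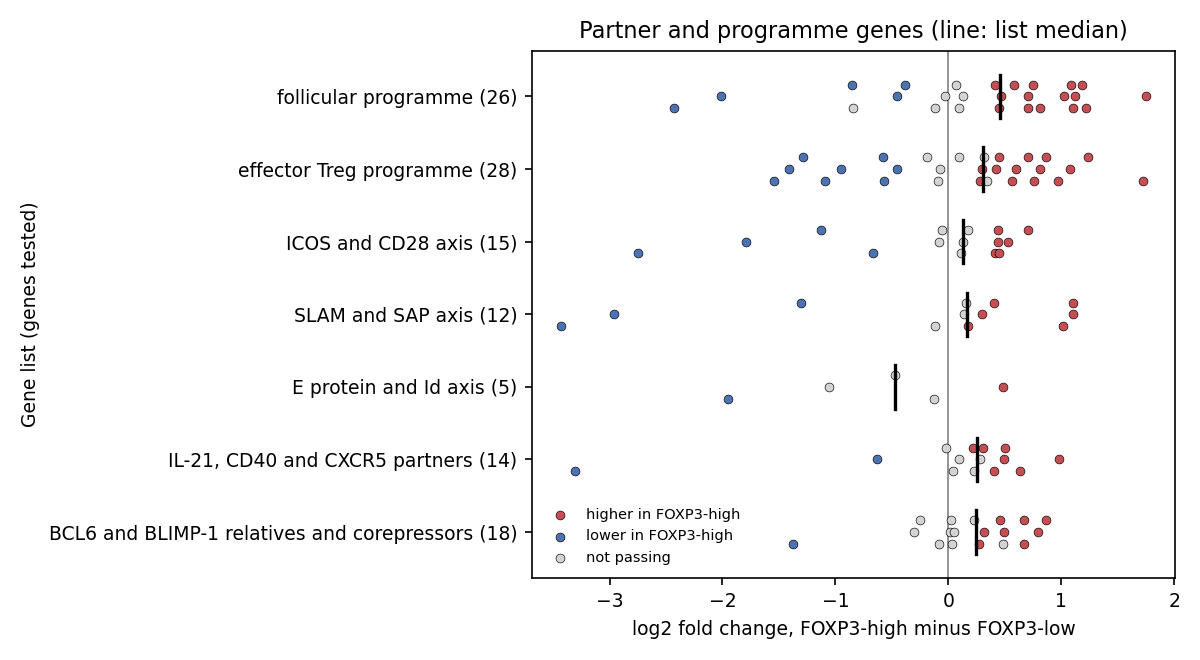
Log2 fold change, FOXP3-high minus FOXP3-low with TMM scaling, of each tested gene of 7 lists of partner and programme genes. Red points passed as higher, blue as lower and grey did not pass, and black lines are list medians. Of the 7 medians, 6 lie between 0.13 and 0.46, and that of the E protein and Id list lies at -0.47.

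Genes with the pattern most like the 3 leading members were found by the root-mean-square difference of log2 CPM, centred on each gene's mean over the 7 libraries, among 9628 genes with at least 5 CPM. For Icos they were Crbn, Arhgap25 and Trp53inp1, at differences of 0.0396 to 0.0438 where the median gene was at 0.548. For Prdm1 they were Sbno2, Ehbp1l1 and Ccni, at 0.0504 to 0.0547 where the median gene was at 0.257. For Bcl6, whose FOXP3-high replicate 2 stood above the others of its group, the nearest were Plppr3, Ptpn3 and Mfsd4b4, at 0.107 to 0.12 where the median gene was at 0.366.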

How the data were processed

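Stranded mRNA libraries were made from TRIzol-extracted total RNA, per the labels' protocols. The submitters' processing notes name fastp 0.23.4, STAR 2.5.3a, featureCounts and 2 builds, GRCh38 and GRCm39, of which the second is mouse and is used for coordinates. The authors deposited raw counts, whole numbers for each gene without normalization, in 1 table with gene lengths in bases. Whether strand was used in counting is not given. Sample columns that matched no sample numbered 0.

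Sample titles gave the group and replicate number. FOXP3-low libraries held 12177761 to 14546999 counts and FOXP3-high libraries 9048771 to 11202260, so 1 CPM is 9 to 14.3 counts. Replicates differed by more than counting noise (chi-square per gene of 3.98 to 12.2 for genes with enough counts).

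The analysis used edgeR 4.0.16 under R 4.3.3, with filterByExpr (minimum count 10, total 15), TMM, and the quasi-likelihood test over 15838 genes. The standard error of a log2 fold change was derived from its F statistic. Ratios used a prior count of 0.5 and scipy 1.17.1. The edgeR step was tested on simulated data. Alternatives used limma 3.58.1 and DESeq2 1.42.0. Named genes are the 10 members, up to 4 genes per list with the smallest adjusted p under 0.05 and at least 5 CPM, and the 3 genes most like each of Bcl6, Prdm1 and Icos. Foxp3 was named as the check of the labels, and some genes because they overlap a named gene. The others are said to be named after their values were seen. Marker sums without Fn1 or Ccr2 were added after the values were seen. The members and lists were chosen with earlier results of these data known.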

Additional observations from a re-analysis of the deposited data

How the results depend on the processing

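Calls were recomputed under 20 alternatives, and the cause of each change was not tested unless stated. Of the 10 members 3 passed, all higher. With T cell scaling 7 passed, 5 of them lower, since the scaling shifts all genes (55% of all genes passed, 50.2% as lower). With limma-voom and sample quality weights 5 passed, 2 of them lower, where 7759 of 15838 genes passed, 4033 as lower. A filter of at least 50 counts in 3 libraries left out Cxcr5, Id3 and Il21. With it 4 members passed, where 6591 of 11558 genes did. Of the 4, 1 was lower, Tox2 (edgeR adjusted p = 0.043), where 3443 genes were lower. Against a null of up to a 2-fold change, 1 member passed, 1 higher and 0 lower, where 7.06% of all genes passed. Leaving out each library gave 3 to 4 called, 3 to 3 higher and 0 to 1 lower. In those fits 6392 to 6890 of 15509 to 16407 genes were called, 2718 to 3318 as higher and 3412 to 3674 as lower. Of the 114 tested pathway genes, 14 passed against the 2-fold null (4 higher, 10 lower), where 0.865% of all genes were higher and 6.19% lower. With T cell scaling 21 were higher and 54 lower, where 4.84% and 50.2% of all genes were. Leaving out each library gave 74 to 82 pathway genes called.

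Prdm1 changed sign near 0, at 0.0337 with upper quartile factors, 0.0508 with total counts, and -0.0988 to 0.0442 without single libraries. Cxcr5 was at -0.37 with T cell scaling, -0.0561 without both libraries numbered 3, and -0.0501 to 0.292 without single libraries. Tcf12 (-0.000479), Jak1 (-0.0755) and Ncor1 (-0.17) changed sign with T cell scaling. The balances kept their direction, at 0.22 to 0.47 for Prdm1 to Bcl6 and 0.37 to 1.11 for Id2 to Id3 without single libraries. The labels do not say whether equal replicate numbers pair the samples. Correlations of deviations from the group means were -0.097, 0.0736 and 0.487 for numbers 1 to 3. The last was the highest of all combinations, but not every sample correlated best with its own number. With so few libraries, whose deviations sum to 0 within a group, these values cannot settle whether samples were paired. The replicate block gave 3 members called, where 7029 of 15838 genes were called. Id3, Cxcr5 and Il21 rest on only 7 to 52 counts per library, and the part of depth in their spread was not tested.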
